A study of Mus musculus with 34 samples.

Results

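The 36 genes described here carry glucose into the cell, break it down to lactate, or belong to the response to low oxygen. They were picked by gene symbol from both deposited count tables. They filled 37 of 52550 rows in the main table and 37 of 25498 rows in the second one, because the symbol Eno1 stood on 2 rows, which the GRCm38 annotation names Eno1 and Eno1b. All 37 rows held enough counts to be tested in both tables.

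Glycolysis turns glucose into pyruvate, and lactate dehydrogenase converts pyruvate into lactate, which monocarboxylate transporters carry across the membrane. The hypoxia-inducible factors (HIF) pair an oxygen-labile alpha subunit with a stable partner and raise transcription of many glycolytic genes and of genes for blood vessel growth and mitochondrial turnover. Prolyl hydroxylases mark the alpha subunit for degradation when oxygen is present. In macrophages the same factors also act during inflammatory activation in normal oxygen.

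RNA was sequenced from macrophages grown out of the marrow of mice aged 10 to 14 weeks, over 6 days with 10 ng/ml M-CSF, the growth factor for this lineage. After 24 h of rest the cells received low-density lipoprotein (LDL, the main cholesterol carrier of plasma) at 200 mg/dL or its vehicle for 24 h. All mice, WT controls included, carried Vav-Cre, a recombinase active in blood-forming cells. Dnmt3aKO mice had both copies of Dnmt3a floxed, Tet2KO mice both copies of Tet2 floxed, and Jak2VF mice had 1 Jak2V617F allele beside a WT allele. Dnmt3a adds methyl groups to DNA, Tet2 oxidises them, and V617F activates the kinase Jak2. The series asks how these mutations, which are common in clonal hematopoiesis, alter macrophage transcripts. The main set comprised 24 libraries, 3 per genotype and treatment. Batch 1, as the labels name it, held 10 libraries from WT and Tet2KO only, 3 with vehicle and 2 with LDL per genotype. Nothing in the labels ties a library to its own animal, so p-values measure the spread between libraries, which may be technical.

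Libraries of the main set held 24105237 to 43904761 counts each, and those of batch 1 held 15171143 to 44449473. Levels are given as CPM, the count scaled to the TMM-adjusted library total, and differences as log2 fold changes ± SE from the edgeR quasi-likelihood test with Benjamini-Hochberg adjustment over all genes. A gene was called at an adjusted p under 0.05. The macrophage marker sum was high in every library, at 19350 to 34100 CPM in the main set, and most of it was Lyz2 (15100 to 27800 CPM). Collagen and other stromal transcripts were high as well, at 7477 to 15900 CPM over 5 markers. Neutrophil markers summed to 35.7 to 690.5 CPM, the T cell marker Cd3e reached 1.29 CPM and 5 erythroid markers summed to 3.83 CPM at most. The astrocyte gene Gfap stood at 2.72 CPM in WT LDL library 3 and 4.26 CPM in Tet2KO LDL library 3, against at most 0.713 CPM in the other 22. Gfap was picked out of 15 brain markers. Their sum was 113 CPM in that WT library and 127 CPM in that Tet2KO library, against 80.9 to 122 CPM in the other 22, a range that holds the WT value. Mbp made up most of the sum, at 68.6 to 115 CPM, so the sum cannot show a few CPM of other brain transcripts. In bulk RNA, a smaller share of a cell type and less RNA per cell cannot be told apart.

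Upstream sequences are shown for 6 genes on which the results below turn: a glucose transporter, a lactate transporter, a secreted peptide, a prolyl hydroxylase, a stress regulator and a growth factor. Each is the stretch before the gene start in RefSeq (GRCm38.p6), up to 250 bases and ending before any annotated exon of the gene. Lower case is plain sequence, and capitals mark ACGTG or GCGTG, the core letters that HIF dimers bind, or their reverse complements CACGT and CACGC.
Slc2a1, chr4:119108495-119108710, plus strand: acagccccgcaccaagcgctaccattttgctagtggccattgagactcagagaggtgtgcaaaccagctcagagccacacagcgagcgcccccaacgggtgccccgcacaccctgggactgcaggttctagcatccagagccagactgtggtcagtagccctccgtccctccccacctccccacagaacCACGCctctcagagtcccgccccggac
Slc16a1, chr3:104638414-104638663, plus strand: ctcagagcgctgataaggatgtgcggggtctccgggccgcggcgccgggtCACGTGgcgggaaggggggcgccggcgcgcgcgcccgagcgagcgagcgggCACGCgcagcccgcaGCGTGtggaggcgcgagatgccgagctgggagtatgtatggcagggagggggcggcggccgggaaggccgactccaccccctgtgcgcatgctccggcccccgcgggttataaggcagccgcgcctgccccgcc
Adm, chr7:110627407-110627656, plus strand: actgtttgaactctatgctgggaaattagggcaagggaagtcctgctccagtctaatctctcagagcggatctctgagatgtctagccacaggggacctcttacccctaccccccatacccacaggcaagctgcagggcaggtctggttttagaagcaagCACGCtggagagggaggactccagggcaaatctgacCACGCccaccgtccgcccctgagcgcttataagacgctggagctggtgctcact
Egln3, chr12:54203875-54204124, minus strand: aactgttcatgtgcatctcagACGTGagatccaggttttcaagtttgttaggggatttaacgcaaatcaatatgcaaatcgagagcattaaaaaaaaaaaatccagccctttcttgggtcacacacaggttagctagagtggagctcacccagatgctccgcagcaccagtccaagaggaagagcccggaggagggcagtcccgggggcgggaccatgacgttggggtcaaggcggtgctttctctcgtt
Ddit4, chr10:59951835-59952020, minus strand: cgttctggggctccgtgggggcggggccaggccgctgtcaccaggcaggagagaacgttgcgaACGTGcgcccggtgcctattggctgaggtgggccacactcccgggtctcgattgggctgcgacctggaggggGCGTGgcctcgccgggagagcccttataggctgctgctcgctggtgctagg
Vegfa, chr17:46032378-46032627, minus strand: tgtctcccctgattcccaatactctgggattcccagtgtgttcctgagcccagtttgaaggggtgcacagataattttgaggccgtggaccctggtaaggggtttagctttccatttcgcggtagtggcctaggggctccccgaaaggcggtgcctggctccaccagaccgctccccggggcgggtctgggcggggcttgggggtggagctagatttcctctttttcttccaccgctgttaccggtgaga
In the Slc16a1 stretch the first capitals read CACGTG, which holds the letters on both strands and was counted as 2 matches. The Vegfa stretch held no match, but a second Vegfa window, inside the gene, held 2, so Vegfa is among the genes with a match below. The Slc2a1 stretch was cut at the first exon, within a second match that its full 250 bases hold. Over the 250 bases before each start, 38 of 47 member promoters held a match (80.9%), as did 38.6% of the 32851 promoters in the table. By gene this was 30 of 33 members (90.9%) and 41.5% of 27025 genes. The promoters of Gpi1, Eno2 and Tpi1 held no match, and Bnip3l, Epas1 and Ndrg1 had no entry. A match is a run of letters and not a measured binding site.

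With LDL, transcripts of the glucose transporter gene Slc2a1, the lactate transporter gene Slc16a1 and 4 other members were higher in all 4 genotypes. Slc2a1, Pkm, Slc16a1, Hif1a, Vegfa and Ddit4 rose in each genotype tested against its own vehicle libraries. The share of all genes called higher in all 4 genotypes was not computed. In WT 17 of the 37 rows rose and 0 fell, against 6.67% of all genes tested that rose and 7.58% that fell, and the median log2 fold change was 0.33 over the members and 0.00 over all genes. In Dnmt3aKO 7 rose and 2 fell (6.41% and 8.96% of all genes), in Tet2KO 13 rose and 1 fell (8.59% and 8.21%), and in Jak2VF 9 rose and 2 fell (8.44% and 9.72%). The member medians there were 0.12, 0.19 and 0.00, beside -0.02, 0.00 and -0.02 over all genes. Averaged over the 4 genotypes 18 rose and 4 fell, against 16% and 18.5% of all genes, and the median was 0.16 against -0.01. Without WT vehicle library 2 or 3, or without WT LDL library 1 or 3, the WT count was 9, 8, 10 and 11, and without Tet2KO vehicle library 3 the Tet2KO count was 8. Without both LDL libraries highest in Gfap the counts were 11 in WT and 9 in Tet2KO, all among the calls above. With only the groups compared in the fit the counts were 7 in WT, 5 in Tet2KO and 19 in Dnmt3aKO, so their order across genotypes turned around. Shares of all genes are given for the main fits only, here and below. Whether the members changed more than all genes under such alternatives is therefore not shown. Of 5 T cell markers 1 was lower with LDL in each genotype and 4 did not pass. Cd4, singled out after its values were seen, held 3.38 to 47.3 CPM over the 24 libraries, and none of Cd3d, Cd3e, Cd8a and Trac exceeded 2.73 CPM. Stromal markers summed to 10250 to 15900 CPM with vehicle and 7477 to 11600 CPM with LDL over the 4 genotypes, and their part in the LDL values was not tested.

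**Figure D1:**
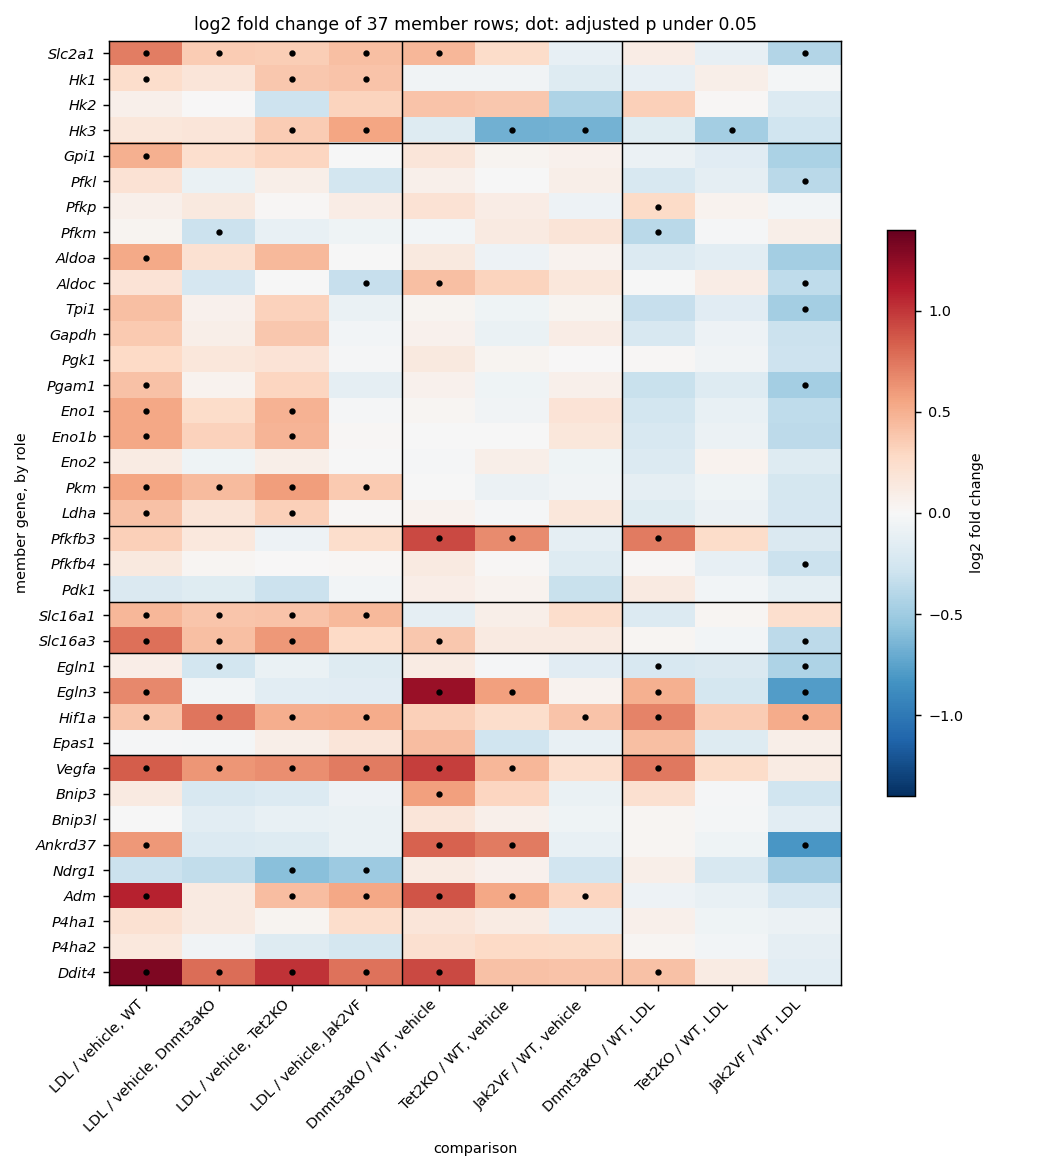
Log2 fold change (colour, red higher and blue lower) of the 37 member rows, ordered by role with lines between roles, in 4 LDL comparisons and 6 comparisons of a mutant genotype with WT, 3 libraries a group. Dots mark an adjusted p under 0.05 (edgeR): rows for Slc2a1, Pkm, Slc16a1, Hif1a, Vegfa and Ddit4 carry a dot in each of the first 4 columns.

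Slc2a1 (ENSMUSG00000028645, chromosome 4, 119108711 to 119137983 on GRCm38) encodes the glucose transporter GLUT1. It held 175, 198 and 162 CPM in the WT vehicle libraries and 274, 276 and 330 with LDL, a log2 fold change of 0.72 ± 0.09, adjusted p = 5.5e-06. Every LDL library lay above every vehicle library of the same genotype in all 4 genotypes. Slc2a1 was singled out by its calls on these same libraries, so this is no separate support. Here and below, the share of all genes without overlap was not computed. The rise was 0.42 ± 0.09 in Jak2VF, 0.36 ± 0.09 in Dnmt3aKO and 0.34 ± 0.09 in Tet2KO, and the Tet2KO call was lost without Tet2KO vehicle library 1 (log2 fold change 0.29, adjusted p = 0.0672).

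The hexokinases, which trap glucose as glucose 6-phosphate, differed among themselves. Hk1, the form found in most tissues, rose in Tet2KO (0.38 ± 0.08, adjusted p = 0.00196) and Jak2VF (0.40 ± 0.08, adjusted p = 0.00114), where the length offset ended the call (0.22, adjusted p = 0.108). In WT it stood at 0.25 ± 0.08, adjusted p = 0.0412, a call lost without WT vehicle library 1, 2 or 3 or WT LDL library 3 (log2 fold change 0.18 to 0.28, adjusted p = 0.0562 to 0.201), and in Dnmt3aKO at 0.17 ± 0.08, adjusted p = 0.166. Hk3, the form of blood cells, rose in Jak2VF from 99.3, 103 and 99.8 to 147, 150.3 and 144 CPM (0.55 ± 0.11, adjusted p = 0.00118). In Tet2KO it stood at 0.36 ± 0.11, adjusted p = 0.0291, lost without Tet2KO vehicle library 2 or 3 or Tet2KO LDL library 1 or 3 (log2 fold change 0.26 to 0.36, adjusted p = 0.0623 to 0.168). Neutrophil marker sums moved from 519 to 690.5 CPM with vehicle to 307 to 362 CPM with LDL in Jak2VF, while Hk3 rose. Hk2, the inducible form, was not called in any comparison and held between 64.5 and 149 CPM.

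Glycolytic enzymes were among the most abundant members. No enzyme passed the test of an interaction, so a difference in their LDL response between genotypes was not shown. In WT 7 of 15 enzyme rows rose: Gpi1, Aldoa, Pgam1, Eno1, Eno1b, Pkm and Ldha, by 0.41 to 0.56 on the log2 scale. Eno1 and Eno1b stand as 2 rows in this and the other counts of members, although shared reads may make them 1 signal. In Tet2KO Eno1, Eno1b, Pkm and Ldha rose. In Dnmt3aKO and Jak2VF Pkm was the only enzyme that rose, while Pfkm, the muscle form of phosphofructokinase, fell in Dnmt3aKO (-0.30 ± 0.07, adjusted p = 0.00463) and Aldoc, a brain-type aldolase, stood at -0.32 ± 0.10, adjusted p = 0.0305 in Jak2VF, lost without Jak2VF vehicle library 1 or 2 or Jak2VF LDL library 1 or 3 (log2 fold change -0.28 to -0.32, adjusted p = 0.0806 to 0.11). The counts depended on the fit: with only the groups compared, 0 of the 15 glycolytic enzymes from glucose 6-phosphate to lactate were called in WT and in Jak2VF and 1 rose in Tet2KO, while 6 rose and 2 fell in Dnmt3aKO. The median over the 15 rows was 0.41 in WT, 0.30 in Tet2KO, 0.14 in Dnmt3aKO and -0.01 in Jak2VF.

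Pkm (ENSMUSG00000032294, chromosome 9, 59656368 to 59679375) encodes pyruvate kinase of muscle and macrophages, which makes pyruvate from phosphoenolpyruvate. It held 3601, 3565 and 3040 CPM with vehicle and 5535, 4248 and 5223 CPM with LDL in WT (0.56 ± 0.11, adjusted p = 0.0014), and the groups did not overlap. In Dnmt3aKO it rose from 3540, 3236 and 3364 to 4513, 4651 and 4633 CPM (0.44 ± 0.11, adjusted p = 0.00827) and in Tet2KO from 3150, 3104 and 3356 to 5410, 4044 and 4913 CPM (0.58 ± 0.11, adjusted p = 0.000955). The Jak2VF value was 0.36 ± 0.11, adjusted p = 0.0293, lost without Jak2VF vehicle library 2 or 3 or Jak2VF LDL library 1 or 2 (log2 fold change 0.29 to 0.38, adjusted p = 0.0668 to 0.104). The vehicle libraries of the 4 genotypes covered one range, 2939 to 3601 CPM, and all 12 LDL libraries lay between 3966 and 5535 CPM.

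Ldha, which makes lactate, showed how much single libraries counted. It held 2472, 2241 and 1980 CPM with vehicle and 3298, 2504 and 3066 CPM with LDL in WT (0.41 ± 0.12, adjusted p = 0.0201). LDL library 2 stood just above the highest vehicle library, and the other LDL libraries stood well above it. The Tet2KO value was 0.34 ± 0.12, adjusted p = 0.0497, with 3183, 2446 and 2720 CPM against 2105, 2212 and 2285 CPM, and it was lost without Tet2KO vehicle library 1, 2 or 3 or Tet2KO LDL library 1 or 3 (log2 fold change 0.23 to 0.37, adjusted p = 0.081 to 0.263). In Jak2VF Ldha stood at 0.02 ± 0.12 and in Dnmt3aKO at 0.18 ± 0.12, neither called. Of the 7 WT enzyme calls, 1 held without vehicle library 3 or without LDL library 1, and 2 without vehicle library 2 or LDL library 3. Of the 4 in Tet2KO, 1 held without vehicle library 1, 2 or 3 or without LDL library 1 or 3.

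The glycolytic enzymes from glucose 6-phosphate to lactate were set beside a measure of transcript length in each library. The 15 rows summed to 21290, 19400 and 16570 CPM with vehicle and 30380, 21190 and 26400 CPM with LDL in WT, and to 17850, 18210 and 19290 against 28650, 20440 and 23880 CPM in Tet2KO. In Dnmt3aKO the sums were 20790, 19520 and 19320 against 21950, 23710 and 23010 CPM, and in Jak2VF 21460, 21560 and 17280 against 19640, 23340 and 19060 CPM. The LDL group lay wholly above the vehicle group in Dnmt3aKO and Tet2KO and overlapped it in WT by 1 library and in Jak2VF. The median log2 deviation of genes with short exons minus that of genes with long exons was highest in WT LDL library 1 (0.685), Jak2VF vehicle library 1 (0.555) and Tet2KO LDL library 1 (0.496), and averaged 0.00 with vehicle and 0.28 with LDL in WT, -0.03 and -0.16 in Dnmt3aKO, -0.23 and 0.06 in Tet2KO, and 0.24 and -0.16 in Jak2VF. With a length offset in the fit, 6 of the 7 WT enzyme calls and all 4 in Tet2KO held, and the enzyme medians for WT, Dnmt3aKO, Tet2KO and Jak2VF were 0.32, 0.12, 0.19 and -0.02.

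**Figure D2:**
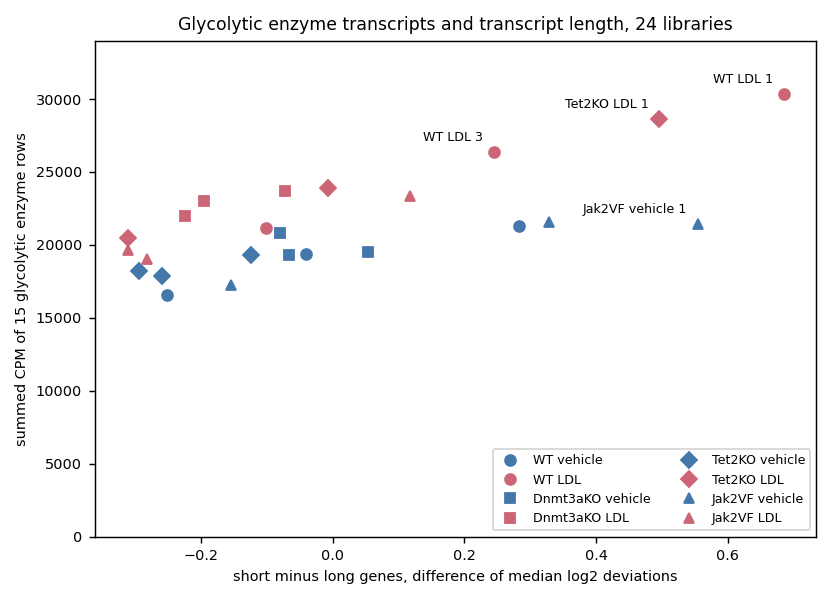
Summed CPM of the 15 glycolytic enzyme rows (vertical axis, from 0) against the difference between short and long genes (horizontal axis, median log2 deviation) in the 24 main libraries, 1 point each. WT LDL library 1 at 0.685 and 30380 CPM and Tet2KO LDL library 1 at 0.496 and 28650 CPM lie at the upper right, while Jak2VF vehicle library 1 at 0.555 holds 21460 CPM.

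The other enzymes that rose in WT followed Ldha in their spread. Eno1, the main enolase, held 2663, 2418 and 2005 CPM with vehicle and 4189, 2649 and 3452 CPM with LDL (0.54 ± 0.16, adjusted p = 0.0239). Eno1b held 505, 475 and 404 and 809, 536 and 669.8 CPM (0.54 ± 0.14, adjusted p = 0.013). Aldoa, which splits fructose bisphosphate, held 1836, 1634 and 1328 and 2869, 1808 and 2244 CPM (0.53 ± 0.17, adjusted p = 0.0364). In each of the 3, LDL library 1 was the highest and LDL library 2 the lowest of its group, and for Eno1 and Aldoa LDL library 2 lay below vehicle library 1. Gpi1, the isomerase of the first step after phosphorylation, held 698, 632 and 514 and 1091, 710.3 and 798 CPM (0.49 ± 0.16, adjusted p = 0.0443), and its call was lost with the length offset (0.56, adjusted p = 0.0515). Pgam1, a phosphoglycerate mutase, held 1425, 1191 and 1083 and 1774, 1411 and 1745 CPM (0.41 ± 0.12, adjusted p = 0.0233), with the same overlap of 1 library.

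Gapdh, Tpi1, Pgk1, Pfkl, Pfkp and Eno2 were not called for LDL in any single genotype. Gapdh, the dehydrogenase often used as a reference transcript, stood at 0.37 ± 0.16, adjusted p = 0.15 in WT and 0.38 ± 0.16, adjusted p = 0.119 in Tet2KO, and ranged from 3384 to 6266 CPM over the 24 libraries. Per kilobase of exon, Gapdh was highest in WT vehicle cells of the main set (954 CPM per kb), followed by Pgk1 (689), Pkm (680.3), Ldha (674), Pgam1 (622), Aldoa (549), Eno1 (439) and Tpi1 (418), against 4.49 for Eno2. Eno2, a neuronal enolase, was the lowest enzyme, below Pfkp (9.12), Pfkm (11.2) and Aldoc (13.3). Many of these enzymes have near-identical processed copies in the genome, and Eno1b is one for Eno1, so their counts depend on how shared reads were assigned. In batch 1 Gapdh held only 75.1 to 162 CPM and Eno1b 3.73 to 11.1 CPM, while Eno1 held 886 to 2233 CPM. The order above is therefore that of the main set alone, and the cause of the difference was not tested. Whether counting used the strand is not given in the sources used here, and Slc2a1, Hk1, Hk3, Gpi1, Pfkm, Pfkp, Aldoa, Tpi1, Gapdh, Pkm, Hif1a, Bnip3, Ankrd37 and Ndrg1 overlap another annotated gene, so reads from the partner may be among theirs.

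None of the 3 regulators of flux was called for LDL in a single genotype. Pfkfb3, which makes the activator of phosphofructokinase, stood between -0.07 in Tet2KO and 0.33 in WT, and Pfkfb4, a related enzyme, between 0.01 and 0.14. Pdk1, a kinase that keeps pyruvate out of the citric acid cycle, was below 0 in every genotype (-0.04 to -0.30) and fell only in the average over genotypes (-0.18 ± 0.05, adjusted p = 0.0138). Its libraries held 187, 216 and 206 CPM with vehicle and 151, 184 and 160.5 CPM with LDL in Tet2KO (-0.30 ± 0.11, adjusted p = 0.0643).

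Both lactate transporters rose. Slc16a3 (ENSMUSG00000025161, chromosome 11, 120948480 to 120960868), the exporter MCT4, held 388, 354 and 315 CPM with vehicle and 674, 519 and 612 with LDL in WT (0.77 ± 0.10, adjusted p = 8.61e-06). The values were 0.42 ± 0.10 in Dnmt3aKO and 0.60 ± 0.10 in Tet2KO, both called, and 0.28 ± 0.10, adjusted p = 0.0562 in Jak2VF. Slc16a1 (ENSMUSG00000032902, chromosome 3, 104638668 to 104658462), the carrier MCT1, held 33.6, 36.1 and 35.5 CPM with vehicle and 45.9, 44.9 and 54.5 CPM with LDL in WT (0.47 ± 0.09, adjusted p = 0.000495). It rose by 0.39 in Dnmt3aKO, 0.40 in Tet2KO and 0.45 in Jak2VF. For both genes LDL and vehicle libraries did not overlap within any genotype, and no call of either was lost when 1 library was left out.

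Among the oxygen sensors, Hif1a, the inducible alpha subunit, was the member of its group that rose in all genotypes. It (ENSMUSG00000021109, chromosome 12, 73901375 to 73947530) held 408, 502 and 462 CPM with vehicle and 753, 764 and 789 CPM with LDL in Dnmt3aKO (0.75 ± 0.12, adjusted p = 0.00014). In Jak2VF it held 496, 469.5 and 460.2 and 741, 607 and 689 CPM (0.51 ± 0.12, adjusted p = 0.0055), and in Tet2KO 461, 469 and 356 and 602, 684 and 539 CPM (0.50 ± 0.12, adjusted p = 0.00635). All LDL libraries lay above their vehicle libraries, although the Tet2KO call was lost without Tet2KO vehicle library 3 (log2 fold change 0.39, adjusted p = 0.0523). In WT, at 337, 369.8 and 377 and 456, 563 and 402 CPM, the value was 0.39 ± 0.12, adjusted p = 0.0364, lost without WT vehicle library 1, 2 or 3 or WT LDL library 1 or 2 (log2 fold change 0.25 to 0.42, adjusted p = 0.0536 to 0.152). Protein levels, at which this subunit is mainly controlled, are not part of these data.

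Epas1, the HIF-2 alpha subunit, stayed between 13.7 and 27.6 CPM and was not called anywhere. Of the prolyl hydroxylases, Egln1 fell in the average (-0.11 ± 0.04, adjusted p = 0.0207) and in Dnmt3aKO (-0.26 ± 0.07, adjusted p = 0.0158), lost there without Dnmt3aKO vehicle library 1 or 3 or Dnmt3aKO LDL library 1 (log2 fold change -0.20 to -0.24, adjusted p = 0.0609 to 0.113). Egln3 (ENSMUSG00000035105, chromosome 12, 54178981 to 54203860), which HIF itself induces, rose in WT from 80, 82.5 and 68.4 to 105, 125 and 138 CPM (0.67 ± 0.13, adjusted p = 0.000588). It was not called with LDL in the mutants, at -0.04 ± 0.12 in Dnmt3aKO, -0.15 ± 0.12 in Tet2KO and -0.16 ± 0.13 in Jak2VF.

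**Figure D3:**
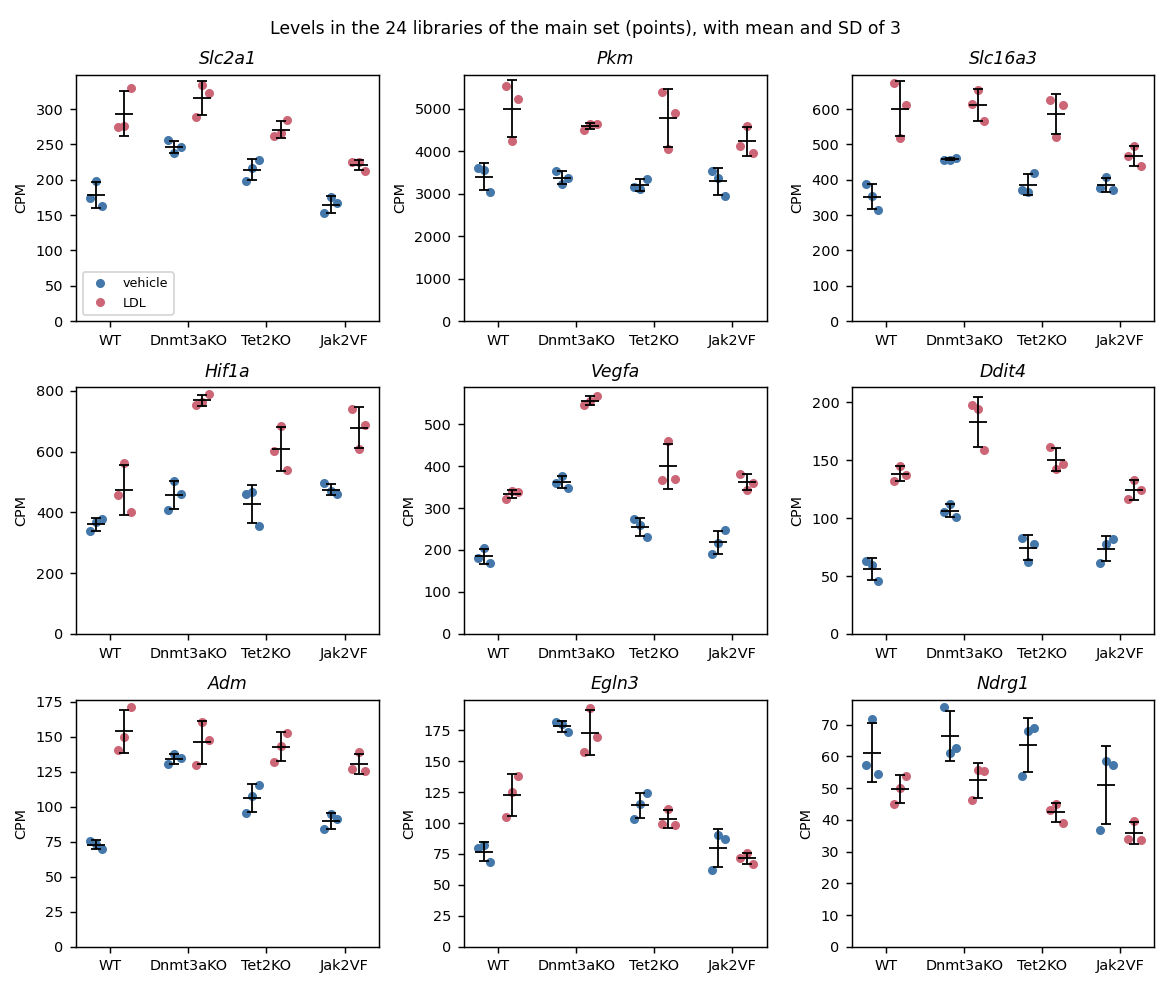
CPM (vertical axes, from 0) of 9 members in the 24 main libraries, vehicle in blue and LDL in red, with a bar for the mean and whiskers for the SD of 3 libraries. Slc2a1, Pkm, Slc16a3, Hif1a, Vegfa and Ddit4 are higher with LDL in each genotype, Adm and Egln3 start higher in Dnmt3aKO vehicle cells (130.4 to 138 and 173 to 182 CPM) than in WT, and the mean of Ndrg1 is lower with LDL in each genotype.

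Among the other HIF targets, Ddit4 and Vegfa rose in all 4 genotypes. Ddit4 (ENSMUSG00000020108, chromosome 10, 59949669 to 59951834), an inhibitor of mTORC1 signalling, held 63.2, 59.5 and 45.3 CPM with vehicle and 132, 145 and 138 CPM with LDL in WT (1.30 ± 0.13, adjusted p = 2.29e-07). Its rise was 1.01 ± 0.13 in Tet2KO, 0.79 ± 0.13 in Dnmt3aKO and 0.76 ± 0.13 in Jak2VF, and over all genotypes the LDL libraries (116 to 197.5 CPM) lay above the vehicle libraries (45.3 to 113 CPM). Vegfa (ENSMUSG00000023951, chromosome 17, 46016993 to 46032369), the vascular endothelial growth factor, held 182, 205 and 168 CPM with vehicle and 322, 341 and 338 CPM with LDL in WT (0.85 ± 0.10, adjusted p = 2.33e-06). It rose by 0.62, 0.65 and 0.73 in Dnmt3aKO, Tet2KO and Jak2VF. No call of Ddit4 or Vegfa for LDL was lost when 1 library was left out.

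Adm (ENSMUSG00000030790, chromosome 7, 110627661 to 110629820), the vasodilator peptide adrenomedullin, had the second-largest rise among members in WT, from 75.8, 73 and 69.7 to 141, 149.6 and 171 CPM (1.08 ± 0.09, adjusted p = 3.76e-08). It rose in Tet2KO (0.43 ± 0.09, adjusted p = 0.00236) and Jak2VF (0.54 ± 0.09, adjusted p = 0.000266) and stood at 0.12 ± 0.09, adjusted p = 0.455 in Dnmt3aKO. With the length offset the Tet2KO value was 0.26, adjusted p = 0.232. Ankrd37, an ankyrin repeat protein of unclear function, stood at 0.61 ± 0.19, adjusted p = 0.0385 in WT, lost without WT vehicle library 2 or 3 or WT LDL library 1 (log2 fold change 0.47 to 0.70, adjusted p = 0.0518 to 0.211) and with the length offset (0.45, adjusted p = 0.0917).

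Not all HIF targets followed. Ndrg1, a differentiation-linked protein, fell in Tet2KO from 53.7, 68.1 and 69.1 to 43.2, 45 and 39.1 CPM (-0.58 ± 0.15, adjusted p = 0.0107), a call lost without Tet2KO vehicle library 3 (log2 fold change -0.52, adjusted p = 0.0527). In Jak2VF it stood at -0.51 ± 0.15, adjusted p = 0.0251, lost without Jak2VF vehicle library 2 or 3 or Jak2VF LDL library 1 or 3 (log2 fold change -0.41 to -0.47, adjusted p = 0.0722 to 0.126), with vehicle library 1 at 36.8 CPM inside the LDL range. It stood at -0.30 in WT and -0.34 in Dnmt3aKO, and fell in the average (-0.43 ± 0.08, adjusted p = 0.000104). Bnip3 and Bnip3l, receptors for removal of mitochondria, were not called for LDL in any genotype (Bnip3 -0.22 to 0.13, Bnip3l -0.15 to -0.01). P4ha1 and P4ha2, subunits of collagen prolyl 4-hydroxylase, were not called in any genotype either, and P4ha1 rose in the average (0.16 ± 0.05, adjusted p = 0.0151). The 5 stromal markers summed to less with LDL than with vehicle in the Dnmt3aKO, Tet2KO and Jak2VF groups (7477 to 11600 against 10470 to 15900 CPM over the 3 genotypes). Their part in the values was not tested.

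In the absence of LDL, Dnmt3aKO macrophages already held more of many HIF targets than WT. With vehicle 10 of the 37 rows were higher and 0 lower, against 5.58% and 5.51% of all genes, with a member median of 0.14 against 0.00 over all genes. The 10 were Slc2a1, Aldoc, Pfkfb3, Slc16a3, Egln3, Vegfa, Bnip3, Ankrd37, Adm and Ddit4, so 5 of the 9 other HIF targets were called but 1 of the 15 enzyme rows. For each of the 10, all Dnmt3aKO libraries lay above all WT libraries. They were chosen by their calls on these same libraries, so this is no separate support. The share of all genes without overlap was not computed.

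Egln3 held 182, 179.7 and 173 CPM in Dnmt3aKO vehicle cells and 80, 82.5 and 68.4 CPM in WT (1.21 ± 0.13, adjusted p = 9.91e-07). Vegfa held 360.3, 377 and 348 CPM against 182, 205 and 168 (0.97 ± 0.10, adjusted p = 9.26e-07), above the 322 to 341 CPM of the WT LDL libraries in each library. Adm held 130.4, 138 and 135 CPM against 75.8, 73 and 69.7 (0.88 ± 0.09, adjusted p = 1.05e-06). Egln3 and Vegfa in untreated Dnmt3aKO cells were thus above WT cells given LDL, while Adm was below the 141 to 171 CPM seen there.

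Pfkfb3 (ENSMUSG00000026773, chromosome 2, 11471433 to 11554077) held 254, 242 and 237 CPM in Dnmt3aKO vehicle cells and 114, 144 and 129.8 CPM in WT (0.92 ± 0.13, adjusted p = 5.63e-05), while LDL gave no call for it in any genotype. Ddit4 was higher by 0.93 ± 0.13, Ankrd37 by 0.83 ± 0.19, Bnip3 by 0.58 ± 0.13 and Slc2a1 by 0.46 ± 0.09. Slc16a3 (0.38 ± 0.10, adjusted p = 0.0147) and Aldoc (0.42 ± 0.10, adjusted p = 0.00751) were both lost without WT vehicle library 3, at 0.31 (adjusted p = 0.101) and 0.33 (adjusted p = 0.0643). Hif1a itself was not called with vehicle (0.34 ± 0.12, adjusted p = 0.087). Neutrophil markers summed to 604 to 652 CPM in these Dnmt3aKO libraries and 165 to 228 CPM in WT, and macrophage markers to 32250 to 34100 against 23450 to 29680 CPM. Most of the macrophage sum was Lyz2, so it largely follows that gene. The part of these markers in the differences was not tested.

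With LDL in both genotypes, 6 of 37 rows were higher and 2 lower in Dnmt3aKO than in WT (8.01% and 9.46% of all genes). Hif1a held 753, 764 and 789 CPM against 456, 563 and 402 (0.70 ± 0.12, adjusted p = 0.000447) and Vegfa 546, 554 and 567 against 322, 341 and 338 CPM (0.74 ± 0.10, adjusted p = 2.53e-05), with no overlap for either. Pfkfb3 stayed higher (0.73 ± 0.13, adjusted p = 0.00066) and Pfkm was lower (-0.38 ± 0.07, adjusted p = 0.000989). Egln3 (0.50 ± 0.12, adjusted p = 0.00919) was lost without WT LDL library 1 (log2 fold change 0.41, adjusted p = 0.0559), Ddit4 (0.41 ± 0.13, adjusted p = 0.0322) without WT LDL library 1 or 3 or Dnmt3aKO LDL library 1 or 2 (log2 fold change 0.36 to 0.40, adjusted p = 0.0857 to 0.107), and Egln1 (-0.23 ± 0.07, adjusted p = 0.0336) without WT LDL library 1 or 3 or Dnmt3aKO LDL library 1, 2 or 3 (log2 fold change -0.17 to -0.24, adjusted p = 0.0604 to 0.156), and 5 rows in all were called without WT LDL library 1. Pfkp, the platelet phosphofructokinase, was higher by 0.27 ± 0.07, adjusted p = 0.0101, but turned to -0.022, adjusted p = 0.906, with the length offset, under which Egln1 was lost as well (-0.13, adjusted p = 0.142).

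Tet2KO vehicle cells also held more of some HIF targets than WT. Here 5 of 37 rows were higher and 1 lower than in WT (2.76% and 2.72% of all genes, 5.47% in either direction), and the higher ones were Pfkfb3, Egln3, Vegfa, Ankrd37 and Adm. Adm held 95.2, 108 and 115 CPM against 75.8, 73 and 69.7 in WT (0.54 ± 0.09, adjusted p = 0.000718) and Pfkfb3 217, 213 and 183 against 114, 144 and 129.8 CPM (0.66 ± 0.13, adjusted p = 0.00341). Vegfa was higher by 0.46 ± 0.10, adjusted p = 0.00616. All 5, again chosen by their calls, separated the genotypes without overlap, and the share of all genes that did so was not computed. Egln3 (0.57 ± 0.13, adjusted p = 0.00691) did not pass when WT vehicle library 3 was left out (0.49, adjusted p = 0.0523), nor did Ankrd37 (0.73 ± 0.19, adjusted p = 0.0266) without WT vehicle library 3 or Tet2KO vehicle library 1, 2 or 3 (log2 fold change 0.59 to 0.77, adjusted p = 0.0509 to 0.143). This comparison and the one for Dnmt3aKO share the WT vehicle libraries, so their values are not independent.

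The row that fell in Tet2KO was Hk3 (ENSMUSG00000025877, chromosome 13, 55005985 to 55021385), the hexokinase of myeloid cells. It held 113, 86.1 and 100.5 CPM in Tet2KO vehicle cells and 158, 165 and 156 CPM in WT (-0.67 ± 0.11, adjusted p = 0.000418). With LDL it was the only row called of 37, at 127, 114 and 143 against 202, 159 and 174 CPM (-0.48 ± 0.11, adjusted p = 0.0152; 1.28% of all genes were higher, 1.48% lower and 2.76% either), a call lost without WT LDL library 1 or Tet2KO LDL library 2 (log2 fold change -0.38 to -0.40, adjusted p = 0.0995 to 0.109), while 2 rows were called without WT LDL library 2. In Jak2VF vehicle cells Hk3 held 99.3, 103 and 99.8 CPM (-0.66 ± 0.11, adjusted p = 0.000477). Neutrophil markers summed to 35.7 to 44.5 CPM in Tet2KO vehicle libraries, 165 to 228 CPM in WT and 519 to 690.5 CPM in Jak2VF. Their part in the Hk3 values was not tested.

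In Jak2VF vehicle cells 2 of 37 rows were higher and 1 lower than in WT (4.29% and 5.26% of all genes, 9.55% in either direction). Hif1a (0.40 ± 0.12, adjusted p = 0.0459) was lost without WT vehicle library 1, 2 or 3 or Jak2VF vehicle library 1, 2 or 3 (log2 fold change 0.36 to 0.43, adjusted p = 0.0571 to 0.127), and Adm (0.30 ± 0.09, adjusted p = 0.0406) without WT vehicle library 2 or 3 or Jak2VF vehicle library 2 or 3 (log2 fold change 0.27 to 0.32, adjusted p = 0.0738 to 0.158) and with the length offset (0.21, adjusted p = 0.416). Without WT vehicle library 2 or 3 or Jak2VF vehicle library 2, 1 row was called. With LDL, Jak2VF held less than WT of several members: 10 rows were lower and 1 higher (5.75% and 4.21% of all genes, 9.97% in either direction), and the member median was -0.28 against -0.01 over all genes. With only the groups compared 1 of the 11 calls held, that of Egln3, and with the length offset 17 rows were called. The count of 11 was 4, 20 and 6 without WT LDL library 1, 2 and 3, and 5 and 4 without Jak2VF LDL library 1 and 3. Shares of all genes under these alternatives are not given.

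Slc2a1 held 225, 224 and 213 CPM in Jak2VF LDL cells against 274, 276 and 330 in WT (-0.41 ± 0.09, adjusted p = 0.00709). Egln3 held 71.8, 75.7 and 67 CPM against 105, 125 and 138 (-0.78 ± 0.13, adjusted p = 0.000554) and Egln1 129, 134 and 127 against 169, 166 and 188 CPM (-0.43 ± 0.07, adjusted p = 0.000746). The groups did not overlap for these 3 genes, which were chosen by their calls on these same libraries, so this is no separate support. The share of all genes without overlap was not computed. No call of these 3 was lost when 1 library was left out. Pfkfb4 (-0.30 ± 0.07, adjusted p = 0.00745) also held, and Ankrd37 (-0.81 ± 0.20, adjusted p = 0.0126) was lost without WT LDL library 1 or Jak2VF LDL library 3 (log2 fold change -0.68 to -0.72, adjusted p = 0.0822 to 0.0841). Pfkl, Aldoc, Tpi1, Pgam1, Slc16a3 and Hif1a (-0.38, -0.36, -0.48, -0.47, -0.37 and 0.52) were each lost without WT LDL library 1 or 3 or Jak2VF LDL library 1 or 3, so that 4 of the 11 calls held without WT LDL library 1 and 4 without Jak2VF LDL library 3. Hif1a was the one member higher in Jak2VF, at 741, 607 and 689 CPM against 456, 563 and 402.

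Interaction terms tested whether LDL acted differently in a mutant genotype than in WT. In Dnmt3aKO 1 of 37 rows differed (0.432% of all genes, 0.19% higher and 0.242% lower): the LDL effect on Adm differed from that in WT by -0.96 ± 0.13, adjusted p = 0.00117. The WT libraries rose from 69.7 to 75.8 CPM to 141 to 171 CPM, and the Dnmt3aKO libraries held 130.4 to 138 CPM with vehicle and 129.6 to 160.2 CPM with LDL, so with LDL the genotypes overlapped. Leaving out any 1 library kept this call, but with the length offset it stood at -0.73, adjusted p = 0.0811. In Jak2VF 2 rows differed (2.47% of all genes, 1.51% higher and 0.962% lower), Egln3 (-0.83 ± 0.18, adjusted p = 0.0196) and Adm (-0.54 ± 0.13, adjusted p = 0.0359). Egln3 was lost without WT vehicle library 3 or WT LDL library 3 or Jak2VF vehicle library 2 or Jak2VF LDL library 1 or 3 (log2 fold change -0.74 to -0.83, adjusted p = 0.0539 to 0.0781), and Adm without WT vehicle library 2 or 3 or WT LDL library 3 or Jak2VF vehicle library 2 or Jak2VF LDL library 1 or 3 (log2 fold change -0.46 to -0.56, adjusted p = 0.0825 to 0.118). With the length offset Egln3 stood at -0.65, adjusted p = 0.0854 and Adm at -0.21, adjusted p = 0.54, and with only the groups compared 0 rows were called. The Jak2VF count of 2 became 0 without WT vehicle library 3, WT LDL library 3, Jak2VF vehicle library 2 or Jak2VF LDL library 1 or 3, and 1 without WT vehicle library 2. It became 7 without WT vehicle library 1, 13 without WT LDL library 2, 9 without Jak2VF vehicle library 3 and 5 without Jak2VF LDL library 2. The Dnmt3aKO count was 2 without WT LDL library 2. Shares of all genes with libraries left out are not given.

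In Tet2KO 0 of 37 rows differed with edgeR (0.103% of all genes, 0.0411% higher and 0.0617% lower), 6 had an unadjusted p under 0.05 and 2 were called with DESeq2. Without WT LDL library 1 edgeR called 2, and without Tet2KO vehicle library 1 it called 1. For members not called, a difference in the response between genotypes was not shown, nor was likeness. Without adjustment 10 rows were lower and 0 higher in the Dnmt3aKO interaction, and 17 lower and 1 higher in that of Jak2VF. The share of all genes at an unadjusted p under 0.05 was not computed for the interactions, so these counts are not shown to be particular to the members. The 3 interactions share the WT libraries. For Slc2a1 the interaction was -0.36 ± 0.13, adjusted p = 0.211 in Dnmt3aKO, -0.38 ± 0.13, adjusted p = 0.384 in Tet2KO and -0.29 ± 0.13, adjusted p = 0.15 in Jak2VF.

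Batch 1 gave a second look at WT and Tet2KO, in libraries fitted apart from the main set. No member was called by edgeR for LDL in WT, in Tet2KO or in the average of both (0%, 0% and 0.271% of all genes). At an unadjusted p under 0.05, 3, 11 and 18 rows were higher and 0 lower. The share of all genes at that unadjusted threshold was not computed, so these counts are not shown to be particular to the members. The member medians were 0.28, 0.40 and 0.36, against 0.00, -0.01 and 0.00 over all genes. DESeq2 called 6 rows higher in the average, and edgeR 5 without Tet2KO vehicle library 3. Slc16a3 held 117, 71.4 and 106 CPM with vehicle and 219 and 147 with LDL in WT (0.89 ± 0.42, adjusted p = 1), and Egln3 9.57, 3.95 and 7.71 and 16.4 and 12.4 CPM (1.02 ± 0.59, adjusted p = 1). Neither gene's groups overlapped, and the share of all genes without overlap was not computed. Hif1a held 153, 102 and 124 and 183 and 189 CPM (0.56 ± 0.34, adjusted p = 1).

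Stromal transcripts separated 2 libraries of batch 1 from the rest, and 19 of the 37 rows were highest in those 2, while Hk3 was lowest there. The share of all genes highest in those 2 was not computed, so this is not shown to be particular to the members. The 5 stromal markers summed to 3277 CPM in Tet2KO vehicle library 3 and 3036 CPM in Tet2KO LDL library 2, against 386 to 700.5 CPM in the other 8. P4ha2 held 43.9, 55.3 and 153 CPM in the Tet2KO vehicle libraries, 59.6 and 173 with LDL, 34.2, 27.2 and 35 in WT vehicle and 47.8 and 34.5 in WT LDL libraries. Adm held 6.56, 9.94 and 23.7 and 12.8 and 32.1 CPM in Tet2KO and 4.94, 3.05 and 5.9 and 9.04 and 5.91 CPM in WT. Both genes were highest in the libraries rich in stromal transcripts, whose part in the values was not tested. Against WT, 0 rows were called in Tet2KO with vehicle or with LDL (1.89% and 0.536% of all genes). At an unadjusted p under 0.05, 7 rows were higher and 4 lower with vehicle, and 10 higher and 1 lower with LDL. The share of all genes at that unadjusted threshold was not computed. With vehicle, DESeq2 called 4 rows, and edgeR called 1 without Tet2KO vehicle library 3. Hk3 held 329.8, 303 and 239 CPM in Tet2KO vehicle and 425, 445 and 409 CPM in WT libraries (-0.55 ± 0.13, adjusted p = 0.0716). It was lower in every Tet2KO than in every WT vehicle library, and among the Tet2KO libraries it was lowest in vehicle library 3 (239 CPM) and LDL library 2 (243 CPM), those rich in stromal transcripts.

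**Figure D4:**
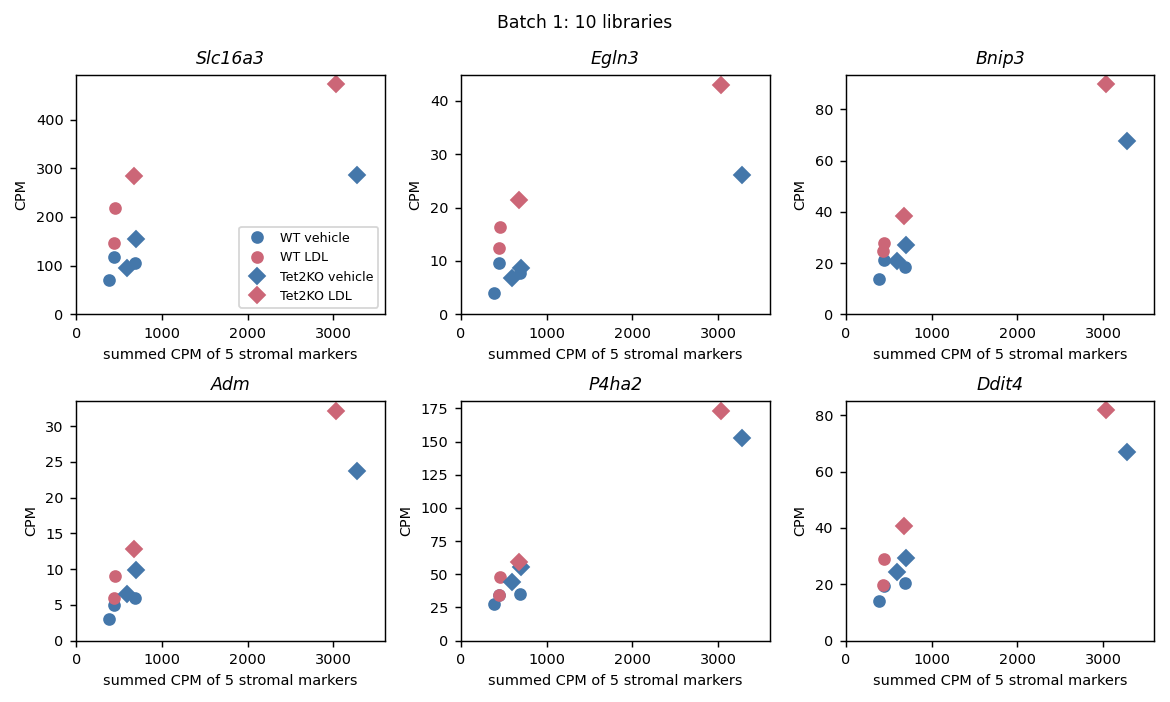
CPM of 6 members (vertical axes, from 0) against the summed CPM of 5 stromal markers (horizontal axes) in the 10 batch 1 libraries, circles WT and diamonds Tet2KO, blue vehicle and red LDL. The Tet2KO libraries at 3277 and 3036 CPM of stromal markers are the highest for each of the 6 genes, although for Slc16a3 the Tet2KO LDL library at 679 CPM (285 CPM) is close to the vehicle library at 3277 CPM (287 CPM).

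Related pathways gave a frame for the members. Of 29 other hypoxia response genes, 6 rose and 10 fell with LDL in the average, with a median of -0.01. Hilpda, a lipid droplet protein, rose by 1.79 ± 0.09 and Angptl4, an inhibitor of lipoprotein lipase, by 1.25 ± 0.10, while Zfp395, a zinc finger protein, stood at -0.89 ± 0.09 and Anln, a cytokinesis protein, at -0.87 ± 0.09. Of 22 tested genes of other glycolytic and glycogen steps, 8 rose and 5 fell. Pygb, a glycogen phosphorylase, Pgam2, a muscle mutase, and Ldhb, the heart-type lactate dehydrogenase, stood at -0.39, -0.66 and -0.71, and Tigar, a fructose bisphosphatase, at 0.44.

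Of 9 pentose phosphate genes 3 rose and 1 fell. G6pdx and Pgd, which make NADPH, rose by 0.49 ± 0.04 and 0.51 ± 0.04, and Taldo1, a transaldolase, by 0.71 ± 0.08, while Prps2, a ribose phosphate kinase, stood at -0.57 ± 0.05. Of 28 genes of pyruvate entry and the citric acid cycle 6 rose and 6 fell. Pdk4, a kinase that closes pyruvate dehydrogenase, rose by 0.92 ± 0.07, whereas the related member Pdk1 fell. Mpc1, of the mitochondrial pyruvate carrier, stood at -0.39, Idh2, an isocitrate dehydrogenase, at -0.42 and Pdp1, the phosphatase that opens pyruvate dehydrogenase, at -0.35. All of these passed the test, and 34.5% of all genes did so in this comparison.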

How the data were processed

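Gene counts from 34 RNA libraries were analysed as deposited, 24 in the main table and 10 in the batch 1 table. The authors' tables are called normalized counts by name, but they hold whole numbers whose totals differ between libraries, so they were treated as raw counts. The submitters' processing notes name mm10. Aligner, counter and annotation: not given in the sources used here. Per the labels' protocols both ribosomal depletion and poly-A selection were used. Every column of both tables was used (0 left out).

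A gene was tested where 3 or more libraries (2 or more in batch 1) reached 10 counts, which left 19444 genes in the main table and 15481 in batch 1. The fit had group means and 1 shared spread in the edgeR 4.0.16 quasi-likelihood test (R 4.3.3, TMM scaling, two-sided, Benjamini-Hochberg adjustment over all genes tested, threshold 0.05). An SE is the size of the log2 fold change over the square root of F. Alternatives were DESeq2 1.42.0, other scalings, no filter, only the groups compared, replicate blocks and libraries left out. On simulated counts for LDL in WT, 200 genes drawn at random over all levels were changed. Of those changed 1.5-fold 31% were recovered, and of those changed 2-fold 64%, among 19041 genes. In batch 1 it was 3% and 36% among 15147. In the main data 14.2% of all genes were called for LDL in WT, so the simulation differs from the data and does not give the power for the members.

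Replicate numbers in the titles were not taken to pair vehicle with LDL libraries in the main fit. Between libraries of the same number, correlations of deviations from group means ran from -0.456 to 0.678 in the main set. Libraries of unlike number were not set beside them, so pairing was neither shown nor excluded. No 2 libraries were identical. The members and lists were chosen with earlier results of these data known. Every member is accounted for, called members with the largest changes in each role are given first, and of each other list at most 4 genes with the smallest adjusted p in the averaged LDL comparison are named. The length offset removes, in each library, the smoothed trend of level on exon length.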

Additional observations from a re-analysis of the deposited data

Results flagged for a closer look

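For 2 genes the response to LDL differed between a mutant genotype and WT in the test of the interaction (edgeR quasi-likelihood test, Benjamini-Hochberg adjustment over all genes). The LDL effect on Adm was -0.96 ± 0.13 on the log2 scale relative to WT in Dnmt3aKO (adjusted p = 0.00117) and -0.54 ± 0.13 in Jak2VF (adjusted p = 0.0359). The LDL effect on Egln3 was -0.83 ± 0.18 relative to WT in Jak2VF (adjusted p = 0.0196). With the length offset the adjusted p of these 3 values was 0.0811, 0.54 and 0.0854. All 3 use the WT libraries.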

How the results depend on the processing

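Counts below are members called out of 37. Shares of all genes called under these alternatives are not given, so a change in the members alone is not shown. With only the groups compared in the fit, LDL called 7 in WT, 19 in Dnmt3aKO and 5 in Tet2KO, against WT with LDL 4 were called in Dnmt3aKO, 1 in Jak2VF and 0 in Tet2KO, and the Jak2VF interaction called 0. Without a filter, LDL in Dnmt3aKO called 5, and the interactions called 4 in Jak2VF, 2 in Dnmt3aKO and 1 in Tet2KO. DESeq2 called 6 for Jak2VF against WT with vehicle, 4, 2 and 8 in the Dnmt3aKO, Tet2KO and Jak2VF interactions, and in batch 1 6 for averaged LDL and 4 for Tet2KO against WT with vehicle. With DESeq2 size factors the Tet2KO interaction called 1. Without both LDL libraries highest in Gfap, LDL called 11 in WT and 9 in Tet2KO, Jak2VF against WT with LDL 6 and the Jak2VF interaction 0. With the replicate block by title number the Dnmt3aKO and Tet2KO interactions called 2 each, and with the block within genotype the Jak2VF interaction called 6. Whether the numbers pair the libraries was not shown. Blocks within genotype could not be fitted for comparisons between genotypes, and the averaged LDL effect has no fit with fewer groups.

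These alternatives were chosen after seeing the data. Without both LDL libraries highest in short transcripts, 0 were called for Tet2KO against WT with LDL, 5 for Jak2VF against WT with vehicle, 5 with LDL and 2 in the Dnmt3aKO interaction. With the length offset, 10 were called for Tet2KO against WT with vehicle, 17 for Jak2VF against WT with LDL, 0 in the Dnmt3aKO interaction and 1 for Tet2KO against WT with vehicle in batch 1, and Pfkp in Dnmt3aKO against WT with LDL turned to -0.022. Without both batch 1 libraries with collagen transcripts, 1 was called for Tet2KO against WT with vehicle. The cause of these changes was not tested.

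Leaving out 1 library gave 8 to 19 calls for LDL in WT, 8 to 18 in Tet2KO, 8 to 9 in Dnmt3aKO, 8 to 13 in Jak2VF and 20 to 24 in the average. Against WT it gave 8 to 11 in Dnmt3aKO with vehicle and 5 to 12 with LDL, 4 to 7 and 0 to 2 in Tet2KO, and 1 to 4 and 4 to 20 in Jak2VF. The interactions gave 0 to 13 in Jak2VF, 1 to 2 in Dnmt3aKO and 0 to 2 in Tet2KO. In batch 1 it gave 0 to 5 for averaged LDL, 0 to 1 for Tet2KO against WT with vehicle and 0 in the other 3 comparisons. Over single genes and all alternatives, 11870 values kept their direction and side of the threshold, 300 lost a call, 261 gained one and 1 reversed.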

Other observations

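Car9, a carbonic anhydrase and a common marker of HIF activity, was chosen after its values were seen. It comes from the list of other hypoxia response genes. The rest of that list is not given against WT here, so Car9 does not speak for it. It was higher in Dnmt3aKO than in WT by 2.11 ± 0.16 with vehicle (adjusted p = 1.12e-08) and by 1.91 ± 0.16 with LDL (adjusted p = 3.54e-08). In Tet2KO with vehicle Car9 stood at 0.43 ± 0.16 against WT (adjusted p = 0.129). With LDL it fell in Tet2KO (-0.49 ± 0.16, adjusted p = 0.0367) and Jak2VF (-0.55 ± 0.16, adjusted p = 0.0183). In Dnmt3aKO its LDL effect was -0.02 ± 0.15 (adjusted p = 0.956).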
